A study of Mus musculus with 6 samples.

Results

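The genes described here are 33 genes of the endoplasmic reticulum (ER) stress response and the integrated stress response, taken by symbol from a table of 28601 genes measured in mouse liver. All 33 passed the filter on low counts, which kept 18648 genes for testing. Liver RNA came from 6 male mice, 3 wild type (WT) and 3 carrying the Cys52Ser substitution of peroxiredoxin 1 (PRDX1), a peroxidase that uses this cysteine to reduce hydrogen peroxide. All 6 ate CDAHFD, a choline-deficient, fat-rich diet with defined amino acids that causes steatohepatitis and fibrosis in mice, so no group on a normal diet enters the comparison. The titles and the series design put the start of feeding at an age of 8 weeks and its length at 8 weeks. In the treatment field the weeks run from 8 to 10 for the WT mice but from 11 to 13 for the Cys52Ser mice. If that field were right, diet length and genotype cannot be told apart. The labels do not say how the allele was made or whether it is confined to some cells.

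The ER folds secreted and membrane proteins, and hepatocytes, which secrete most plasma proteins, hold a great deal of it. When unfolded proteins accumulate there, 3 membrane sensors signal to the nucleus. IRE1 (gene Ern1) splices Xbp1 mRNA, ATF6 is cut in the Golgi, and PERK (gene Eif2ak3) phosphorylates the translation factor eIF2. The first 2 mainly raise chaperones, folding enzymes and the machinery of ER-associated degradation, which returns misfolded proteins to the cytosol for the proteasome. Phosphorylated eIF2, which other kinases also produce in response to amino acid shortage, viral RNA or haem deficiency, slows translation in general but favours that of ATF4, a transcription factor for amino acid and stress genes. This last route is the integrated stress response. Splicing of Xbp1, cleavage of ATF6 and phosphorylation of eIF2 are not visible in gene-level values, so the data bear on the target genes and not on the sensors' activity.

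The promoters of many of these genes share sequence elements. The genes were listed as members of these pathways, and the elements searched are those of the same pathways. The shares below are therefore a description and not independent support for the list. RefSeq promoter windows (GRCm38.p6, 250 bases before to 50 after the start site) were found for 29 of the 33 genes, the exceptions being Atf6, Manf, Hyou1 and Derl1. The ER stress response element (ERSE, searched on both strands as CCAAT and CCACG with 9 bases between them, 19 letters in all) is bound by NF-Y at CCAAT and by ATF6 at CCACG. It was found in 9 of the 29 genes, 31.0%, against 37 of all 27001 genes with a window, 0.137%. The Hsp90b1 window held 2 copies on opposite strands. The related ERSE-II, ATTGG and CCACG with 1 base between them, was found in Dnajb11 and Herpud1, 6.90% of the 29 against 0.0444% of all genes. It shares its CCACG end with the ERSE. The core of the C/EBP-ATF response element read by ATF4 (CARE, TGATGNAA) was found in Herpud1, Trib3, Chac1 and Asns, 13.8% of the 29 against 4.51% of all genes. No window of the 29 held TGACGTGG, a core bound by XBP1 whose reverse strand also contains CCACG; 0.715% of all genes did. A match describes letters in a window and does not show binding, and a missing match says only that these letters are absent from it.

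The ERSE copies are shown because 9 genes from the chaperone, folding and degradation groups share this element. Each is given with 5 bases on either side, the fixed letters in capitals, in the orientation of the motif.
Hspa5 (chr2:34772020-34772048, plus strand): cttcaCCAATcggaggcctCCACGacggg
Hsp90b1, distal copy (chr10:86705633-86705661, minus strand): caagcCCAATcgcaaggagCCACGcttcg
Hsp90b1, proximal copy (chr10:86705528-86705556, plus strand): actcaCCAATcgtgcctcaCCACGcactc
Creld2 (chr15:88819515-88819543, minus strand): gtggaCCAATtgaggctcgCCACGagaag
Dnajc3 (chr14:118937822-118937850, plus strand): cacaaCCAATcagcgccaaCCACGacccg
Pdia6 (chr12:17266486-17266514, plus strand): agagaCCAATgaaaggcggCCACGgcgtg
Calr (chr8:84847070-84847098, plus strand): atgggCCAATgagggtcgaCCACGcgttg
Canx (chr11:50325795-50325823, minus strand): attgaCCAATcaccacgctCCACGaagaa
Syvn1 (chr19:6046527-6046555, plus strand): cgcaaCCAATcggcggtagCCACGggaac
Derl3 (chr10:75893237-75893265, minus strand): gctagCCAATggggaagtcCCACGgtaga

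For the ATF4 side, the CARE matches that lie before a RefSeq start site and the ERSE-II of Herpud1 are shown in the same way. Herpud1 has both kinds of element within its window, as the map of motif positions shows. Start sites here are those of RefSeq: in the deposited table the genes Hspa5 and Asns begin further upstream, so that the Hspa5 ERSE and the Asns CARE lie inside the gene as drawn there.
Herpud1, ERSE-II (chr8:94386372-94386392, plus strand): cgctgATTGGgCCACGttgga
Herpud1, CARE (chr8:94386312-94386329, minus strand): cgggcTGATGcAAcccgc
Chac1, CARE (chr2:119351044-119351061, minus strand): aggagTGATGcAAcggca
Asns, CARE (chr6:7693220-7693237, minus strand): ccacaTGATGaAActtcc

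**Figure D1:**
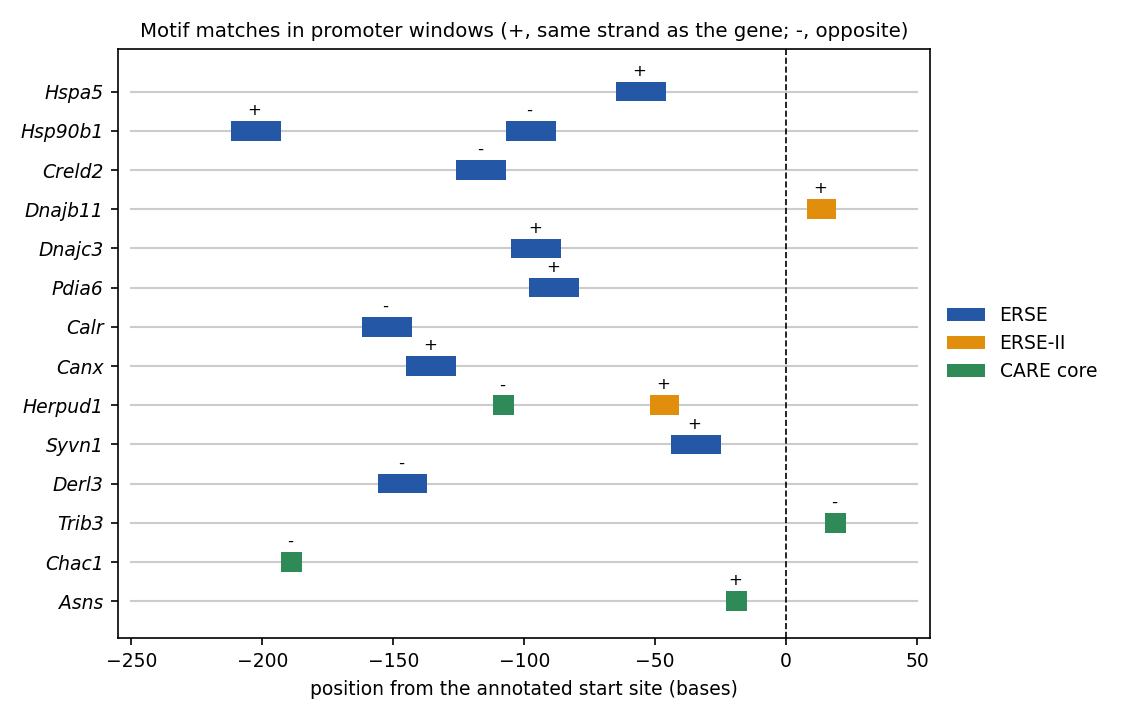
Motif matches in the promoter windows of the 14 genes that had any, as bars against the distance in bases from the RefSeq start site (dashed line); + and - give the strand of the match relative to the gene. All 10 ERSE copies lie before the RefSeq start site, between 212 and 26 bases upstream, while the ERSE-II of Dnajb11 and the CARE of Trib3 lie just after it.

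Total counts per library were 53318196 to 73900923, and TMM scaling factors, which set library sizes from the bulk of genes, were 1.05 to 1.21 in WT and 0.814 to 0.963 in Cys52Ser. With these factors the median log2 fold change of all tested genes was 0, and with library totals alone it was -0.35. Directions below are relative to the TMM scale, and places where the scale matters are stated. As markers of the tissue, 12 of 12 listed hepatocyte genes were measured, with a summed level of 24340 to 34330 FPKM (per-length units) in WT and 45790 to 48960 FPKM in Cys52Ser. The sums are not TMM-scaled, and Alb held the most counts of the 12. Alb had an adjusted p of 0.0574 in the edgeR test on the TMM scale. All 12 had positive log2 fold changes there, 2 of them with an adjusted p under 0.05.

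In Cys52Ser livers 6 of the 33 genes fell and none rose, 18.2% of them against 2.46% of all tested genes called lower and 2.52% called higher (edgeR quasi-likelihood test, Benjamini-Hochberg adjusted p under 0.05 over all 18648 genes). Among the 9337 tested genes with a mean of at least 10 CPM (counts scaled to library size), as 31 of the 33 had, 3.16% were called lower. The genes that fell were the ER chaperones and co-chaperones Manf, Dnajb9, Sdf2l1 and Creld2, the sensor Eif2ak3 and the ATF4 target Trib3. The median log2 fold change of the 33 was -0.27, and 26 of them had negative values, against 50.3% of all tested genes. Every Cys52Ser library was below every WT one for 16 genes and above every WT one for 2, where 15.2% and 14.4% of all tested genes did so, 29.7% in either direction. The number of calls depended on which libraries were in the fit. No gene of the 33 was called when WT replicate 2 was left out, nor when Cys52Ser replicate 1 or replicate 3 was, and 7, 3 and 2 were called lower without WT replicate 1, WT replicate 3 and Cys52Ser replicate 2. Without WT replicate 1, Hspa5, Ddit3 and Chac1 were among the 7 genes, and Sdf2l1 and Creld2 were not. Hyou1 was among the 3 called without WT replicate 3. The number called lower over all tested genes shrank in all of these fits too. The shares were 0.0724%, 0.0467% and 0.0363% in the first 3 of these fits, in that order, and 1.05% to 2.12% in the others. DESeq2 called 13 of the 33 lower, against 6.80% of all tested genes.

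**Figure D2:**
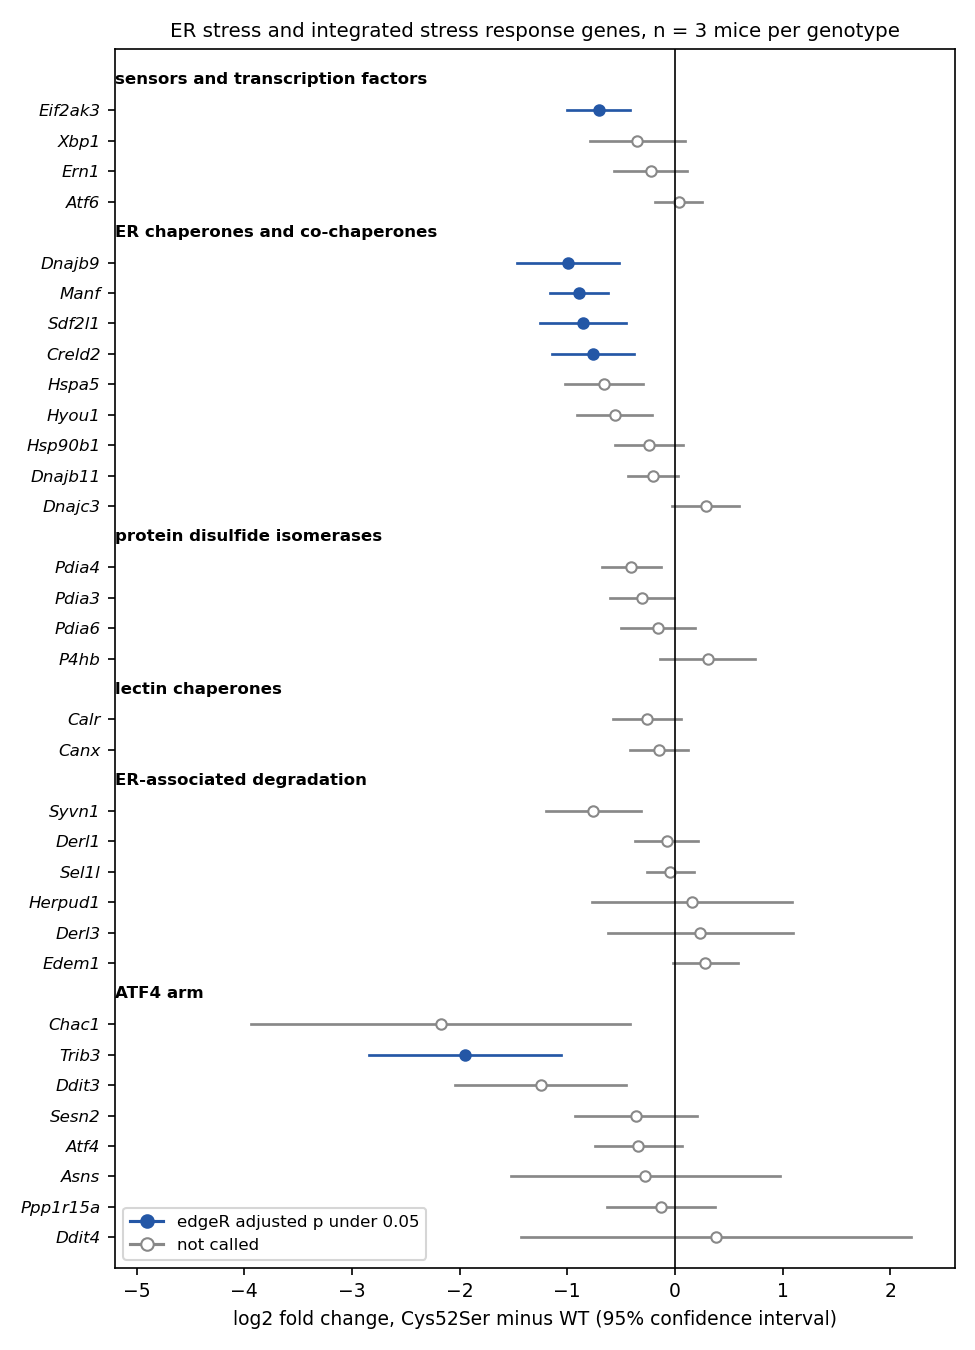
Log2 fold change (Cys52Ser minus WT, TMM scale) of each of the 33 genes with its 95% confidence interval, grouped by role; filled blue points have an edgeR adjusted p under 0.05. The 6 called genes all lie left of 0, 4 of them among the chaperones, whereas the degradation genes lie on both sides.

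Among the sensors, Eif2ak3, encoding PERK (chromosome 6, 70844515 to 70905245), was measured at 35.1, 47.2 and 42.0 CPM in WT, in the order of replicates 1, 2 and 3, and in Cys52Ser at 25.2, 26.3 and 24.6 CPM. The groups did not overlap, and the Cys52Ser values lay close together. It fell 1.63-fold, with a log2 fold change of -0.71 ± 0.13 (SE) and an adjusted p of 0.0317. The other sensors were not called. Ern1, encoding IRE1, had a WT level of 55.5 ± 9.24 CPM and a Cys52Ser level of 47.5 ± 4.96 CPM (SD, n = 3 each; adjusted p = 0.417). Atf6 stood at 72.5 ± 0.737 and 74.3 ± 4.98 CPM (adjusted p = 0.871), with a 95% interval of the log2 fold change from -0.18 to 0.26. Whether Eif2ak3 differed from the other sensors in its response was not tested.

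Xbp1, whose mRNA is the substrate of IRE1 and encodes a chaperone gene activator, was measured at 255, 221 and 284 CPM in WT and at 244, 156 and 198 CPM in Cys52Ser. Its groups overlapped because Cys52Ser replicate 1 lay above WT replicate 2. The log2 fold change was -0.35 with a 95% interval from -0.79 to 0.09 (adjusted p = 0.332).

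Of the 9 chaperones and co-chaperones 4 fell, against 2.46% of all tested genes. In 8 every Cys52Ser library was below every WT library, against 15.2% of all tested genes. The exception was Dnajc3, encoding the co-chaperone P58IPK, with the reverse order. Manf encodes a secreted ER protein with a neuroprotective function (chromosome 9, 106838312 to 106891915). It was measured at 113, 142 and 132 CPM in WT and at 67.4, 70.5 and 70.8 CPM in Cys52Ser. It fell 1.85-fold, with a log2 fold change of -0.89 ± 0.11 (SE) and the smallest adjusted p of the 33 genes, 0.0174. The Cys52Ser libraries were nearly equal, and the lowest WT library lay far above them.

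Dnajb9, encoding ERdj4, a co-chaperone that helps hold IRE1 inactive (chromosome 12, 44205559 to 44210326), was measured at 72.3, 129 and 106 CPM in WT. The Cys52Ser libraries had 50.7, 49.2 and 54.3 CPM. The gene fell 1.99-fold (log2 fold change -0.99 ± 0.20, SE; adjusted p = 0.0425), and WT replicate 1 was the WT library nearest to Cys52Ser.

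Sdf2l1, part of an ER chaperone complex (chromosome 16, 17130138 to 17132383), was measured at 34.2, 36.5 and 38.2 CPM in WT and at 23.8, 15.1 and 21.3 CPM in Cys52Ser. Here the WT libraries were close together and Cys52Ser replicate 2 was lowest. It fell 1.81-fold (log2 fold change -0.86 ± 0.17, SE; adjusted p = 0.0401). Creld2, an ER-resident protein induced by ER stress (chromosome 15, 88819646 to 88826683), was measured at 45.3, 65.4 and 44.3 CPM in WT and at 30.2, 29.4 and 31.9 CPM in Cys52Ser. It fell 1.69-fold (log2 fold change -0.76 ± 0.16, SE; adjusted p = 0.0465), with WT replicate 2 standing highest.

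Hspa5 encodes BiP, the central ER chaperone that binds and releases the sensors (chromosome 2, 34771970 to 34777547). Its levels were 760, 1003 and 866 CPM in WT and 522, 556 and 591 CPM in Cys52Ser. The groups were far apart, at 1.58-fold lower in Cys52Ser, yet the adjusted p of 0.0570 missed the threshold (log2 fold change -0.66, 95% interval -1.02 to -0.30). It was called lower in 9 of 18 alternatives, among them the upper quartile scaling (adjusted p = 0.0465) and DESeq2 (adjusted p = 7.32e-05). The 9 also include library totals alone and limma on FPKM without TMM rescaling, where the median of all genes is lower too. With 1 library left out, edgeR called it only without WT replicate 1 (adjusted p = 0.0494). In the other such fits its adjusted p reached 0.188.

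The remaining chaperones were not called. Hyou1, encoding GRP170, a nucleotide exchange factor of BiP, was 150 ± 26.2 CPM in WT against 102 ± 5.70 CPM (SD, n = 3 each; adjusted p = 0.0766). Hsp90b1, encoding GRP94, was 634 ± 66.4 and 536 ± 6.14 CPM (SD, n = 3 each; adjusted p = 0.347), and Dnajb11, encoding the BiP co-chaperone ERdj3, 92.2 ± 4.29 and 80.1 ± 5.75 CPM (SD, n = 3 each; adjusted p = 0.289). Dnajc3 was 220 ± 14.2 CPM in WT against 268 ± 31.3 CPM (SD, n = 3 each; adjusted p = 0.261). Its value of 0.28 on the log2 scale turned to -0.07 when only library totals were used.

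**Figure D3:**
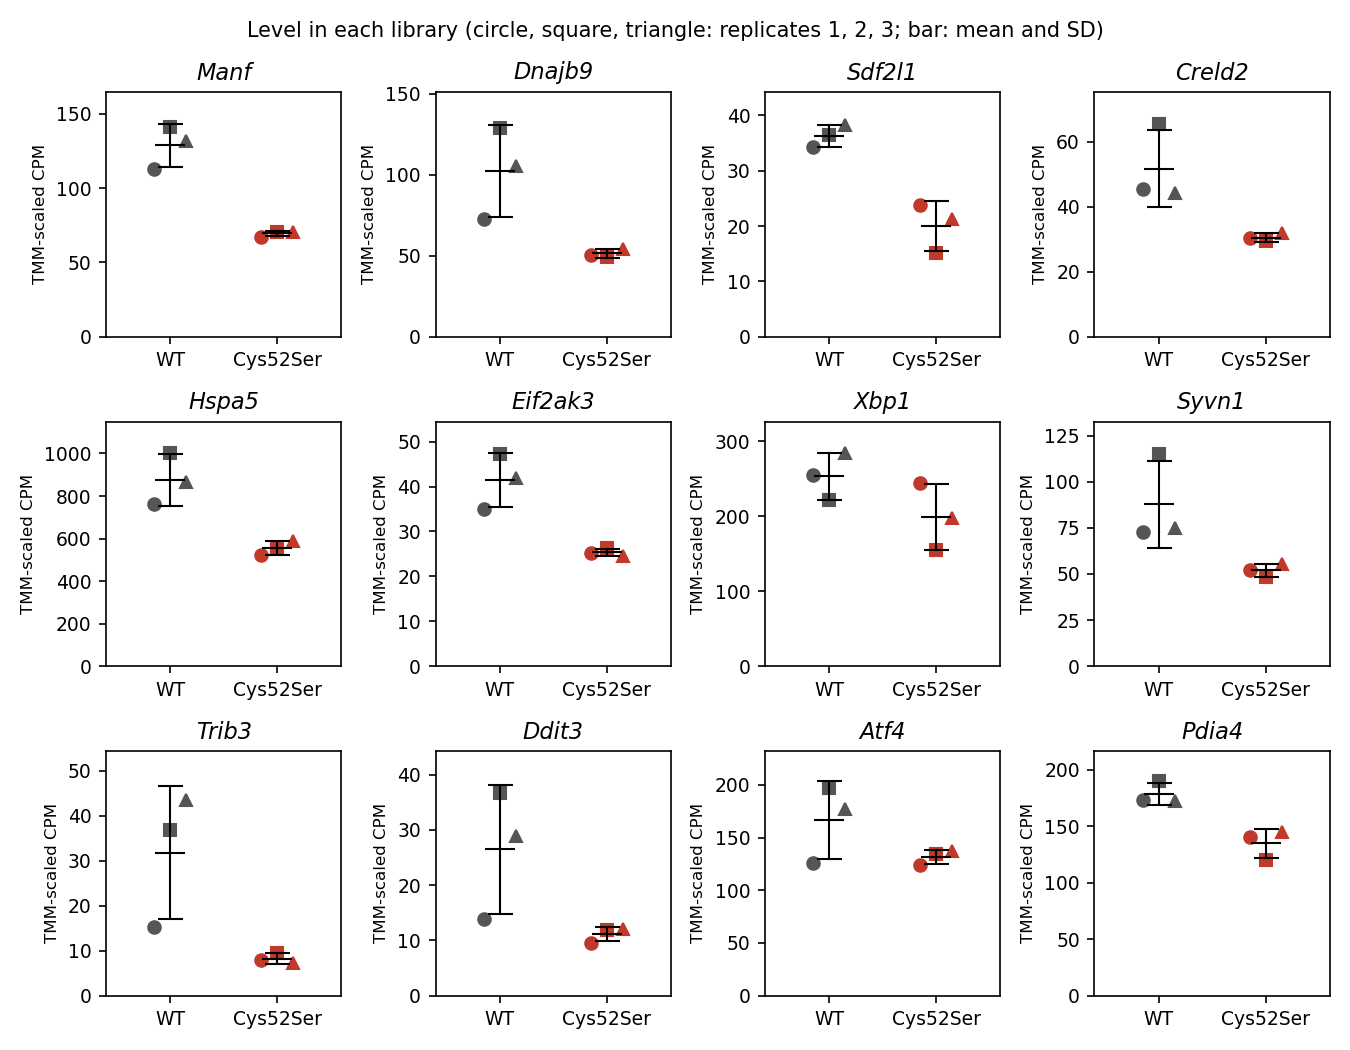
TMM-scaled CPM in each library for 12 of the genes, WT in grey and Cys52Ser in red; symbols stand for replicates 1, 2 and 3, and bars for the mean and SD of 3 mice. The groups do not overlap except for Xbp1 and Atf4, and Trib3 and Ddit3 show WT replicate 1 far below the other WT libraries.

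None of the 4 protein disulfide isomerases, which form and rearrange disulfide bonds, was called. Pdia4, the one with the smallest p, was measured at 173, 190 and 172 CPM in WT and at 140, 120 and 144 CPM in Cys52Ser, without overlap. The log2 fold change was -0.40, with a 95% interval from -0.68 to -0.13 and an adjusted p of 0.0982. Pdia3, encoding the partner of the lectin chaperones ERp57, was 522 ± 38.4 and 422 ± 21.7 CPM (SD, n = 3 each; adjusted p = 0.218). Pdia6 was 275 ± 31.3 and 246 ± 29.0 CPM (SD, n = 3 each; adjusted p = 0.586). P4hb, encoding protein disulfide isomerase itself, which is also a subunit of collagen prolyl hydroxylase and of the microsomal triglyceride transfer protein complex, was measured at 1531, 1920 and 2159 CPM in WT and at 2156, 2127 and 2656 CPM in Cys52Ser (adjusted p = 0.397). Its value of 0.31 on the log2 scale turned to -0.04 when only library totals were used.

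The lectin chaperones calreticulin and calnexin, which hold glycoproteins during folding, were not called either. Calr was measured at 621, 588 and 654 CPM in WT and at 566, 478 and 515 CPM in Cys52Ser, a log2 fold change of -0.26 with a 95% interval from -0.57 to 0.05 (adjusted p = 0.311). Canx was 331 ± 6.65 and 298 ± 14.5 CPM (SD, n = 3 each; adjusted p = 0.506). For both genes every Cys52Ser library was below every WT one, as for 15.2% of all tested genes.

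Genes of ER-associated degradation showed no common direction: of 6, none was called, 3 had positive and 3 negative log2 fold changes, and the median was 0.06. Syvn1, encoding the ubiquitin ligase HRD1, had the smallest p. It was measured at 72.9, 115 and 75.2 CPM in WT and at 51.9, 48.5 and 55.4 CPM in Cys52Ser, a log2 fold change of -0.76 (95% interval -1.19 to -0.32, adjusted p = 0.0653). Sel1l, encoding the adaptor that works with HRD1, stood at 106 ± 4.32 and 103 ± 2.65 CPM (SD, n = 3 each), with a 95% interval of the log2 fold change from -0.26 to 0.18.

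Edem1, a lectin-like factor that delivers glycoproteins to degradation, was measured at 135, 153 and 164 CPM in WT and at 179, 167 and 202 CPM in Cys52Ser (adjusted p = 0.254). Like Dnajc3 it had every Cys52Ser library above every WT one, and its 0.28 on the log2 scale turned to -0.07 when only library totals were used. Derl1, a channel protein, was 201 ± 12.6 and 191 ± 19.5 CPM (SD, n = 3 each). Herpud1, an organiser of the degradation complex, was measured at 171, 442 and 552 CPM in WT and at 466, 370 and 466 CPM in Cys52Ser. WT replicate 1 was by far the lowest, and the log2 fold change of 0.16 was -0.25 without that library.

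Derl3, a homologue of Derl1 that is abundant in plasma cells and pancreatic acinar cells, was the least expressed of the 33 in WT, with WT at 2.82 ± 0.483 CPM and Cys52Ser at 3.32 ± 1.39 CPM (SD, n = 3 each; adjusted p = 0.764). Of 9 tested plasma cell genes none was called, and their summed level was 99.0 to 133 FPKM in WT and 82.2 to 95.7 FPKM in Cys52Ser. Of 12 exocrine pancreas genes 10 were in the table and 4 were tested, with none called, and 7 of the 10 had 0 counts in at least 1 library. Their sum was 288 FPKM in Cys52Ser replicate 2 and 3.77 to 49.0 FPKM in the other 5 libraries. Derl3 was at its lowest in that same replicate, whereas Asns, described below with the ATF4 arm, was at its highest there. The part of pancreas RNA in the values of the 33 genes was not tested.

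In the ATF4 arm 1 of 8 genes fell, against 2.46% of all tested genes. Of the 8, 7 had negative log2 fold changes, and the spread within WT was wide. Trib3, an ATF4 and CHOP target that encodes a pseudokinase (chromosome 2, 152337422 to 152344032), was measured at 15.2, 36.7 and 43.5 CPM in WT. The Cys52Ser libraries had 7.82, 9.52 and 7.33 CPM. It fell 3.87-fold, with an SE of 0.38 around the log2 value of -1.95 (adjusted p = 0.0403). The Cys52Ser libraries were close together, while WT replicate 1 was nearer to them than to the other WT libraries.

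Atf4 itself was measured at 126, 197 and 177 CPM in WT and at 124, 135 and 137 CPM in Cys52Ser. Its groups overlapped, because WT replicate 1 lay within the Cys52Ser range (log2 fold change -0.34, 95% interval -0.74 to 0.07, adjusted p = 0.304). ATF4 is regulated mainly by translation, which these values do not show. Ddit3, encoding the pro-apoptotic transcription factor CHOP, was measured at 13.8, 36.7 and 28.9 CPM in WT and at 9.62, 11.8 and 12.04 CPM in Cys52Ser. The groups did not overlap, but WT replicate 1 came close to Cys52Ser, and the log2 fold change of -1.25 was not called (95% interval -2.04 to -0.45, adjusted p = 0.0843).

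Chac1, an ATF4 target that degrades glutathione, had the largest fold change of the 33 and was not called. It was measured at 2.49, 12.9 and 20.1 CPM in WT and at 1.499, 3.37 and 2.99 CPM in Cys52Ser, a log2 fold change of -2.17 with a 95% interval from -3.93 to -0.41 (adjusted p = 0.145). WT replicate 1 lay within the Cys52Ser range, and the libraries held only 98 to 1158 counts. Without WT replicate 1 both genes were called lower, Ddit3 at -1.61 on the log2 scale (adjusted p = 0.0324) and Chac1 at -2.70 (adjusted p = 0.0396).

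The other ATF4 arm genes overlapped between groups. Asns, asparagine synthetase, was measured at 13.4, 19.7 and 22.0 CPM in WT and at 7.86, 28.8 and 8.996 CPM in Cys52Ser, so that replicate 2 was the highest library of all and the other Cys52Ser replicates the lowest. Ddit4, an inhibitor of mTORC1 that glucocorticoids and hypoxia also induce, was measured at 10.9, 45.9 and 47.2 CPM in WT and at 15.3, 53.2 and 66.8 CPM in Cys52Ser. Replicate 1 was the low library in both groups, and its 95% interval ran from -1.43 to 2.19. Sesn2, encoding a stress-inducible mTORC1 regulator, was 16.4 ± 5.26 and 12.8 ± 0.669 CPM (SD, n = 3 each; adjusted p = 0.449). Ppp1r15a, encoding GADD34, the phosphatase subunit that reverses eIF2 phosphorylation, was 18.3 ± 2.46 and 16.8 ± 4.42 CPM (SD, n = 3 each; adjusted p = 0.782).

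Libraries differed in how the groups of genes behaved. Relative to the WT mean, the median deviation of the 9 chaperones was -0.09, 0.17 and 0.04 in the WT libraries, in replicate order, against -0.63, -0.65 and -0.56 in Cys52Ser, on the log2(CPM + 0.5) scale. The 3 Cys52Ser libraries thus lay close together and apart from WT. For the 8 genes of the ATF4 arm the medians were -0.69, 0.34 and 0.26 in WT and -1.02, -0.25 and -0.66 in Cys52Ser. There WT replicate 1 lay below Cys52Ser replicates 2 and 3, so the arm did not part the genotypes library by library. For the degradation genes the medians were -0.13, 0.05 and 0.01 in WT and 0.13, -0.17 and 0.13 in Cys52Ser.

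**Figure D4:**
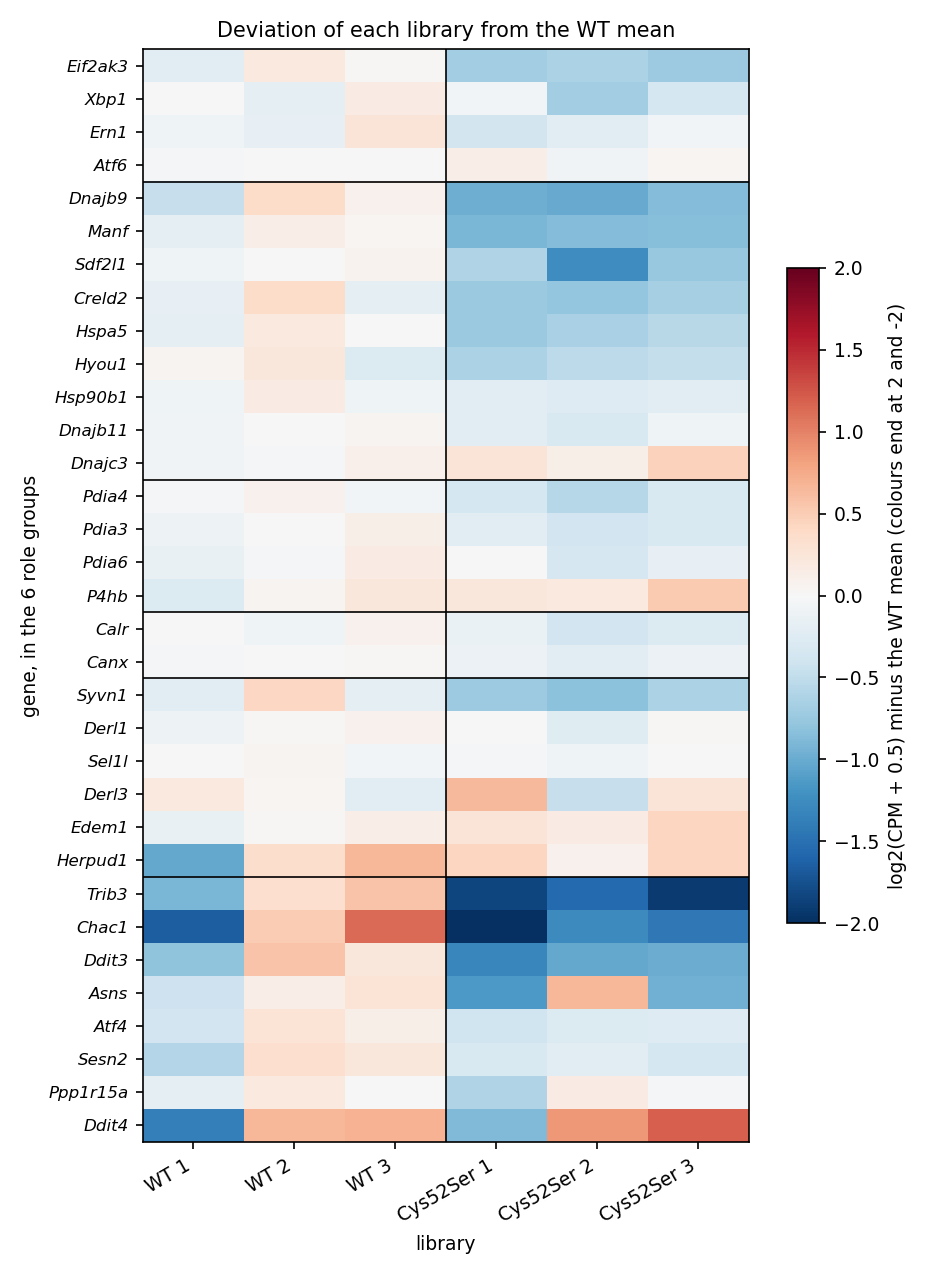
Deviation of each library from the WT mean, as log2(CPM + 0.5), for the 33 genes (rows, separated by lines into sensors, chaperones, disulfide isomerases, lectin chaperones, degradation genes and the ATF4 arm) in the 6 libraries (columns); blue is lower and red higher, and colours end at 2 and -2. The chaperone rows are blue in all 3 Cys52Ser columns apart from Dnajc3, while several ATF4 arm rows are also blue in WT replicate 1.

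On the deposited per-length scale, where genes can be compared with each other, P4hb was the most abundant of the 33, at 648 ± 63.0 FPKM in WT and 631 ± 47.5 FPKM in Cys52Ser (SD, n = 3 each), ranking between 60 and 84 of all genes. In WT it was followed by Calr at 215 ± 14.6, Hspa5 at 207 ± 27.9, Pdia3 at 166 ± 1.13, Herpud1 at 162 ± 73.5 and Hsp90b1 at 157 ± 20.5 FPKM (SD, n = 3). The level of Hspa5 overlapped that of Calr between WT libraries, and Herpud1 ranged across the levels of Hsp90b1, Pdia3 and Calr, so their order in WT is not fixed. In Cys52Ser the order after P4hb was Herpud1 at 145 ± 10.1, Calr at 141 ± 10.7, Pdia3 at 105 ± 5.78, Hsp90b1 at 104 ± 6.77 and Hspa5 at 103 ± 8.08 FPKM (SD, n = 3). Herpud1 and Calr overlapped there, as did the last 3. At the other end were Sesn2 at 4.67 ± 1.33 and Derl3 at 1.40 ± 0.361 FPKM in WT (SD, n = 3).

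Together the 33 genes made up 0.594%, 0.675% and 0.627% of all FPKM in WT and 0.434%, 0.455% and 0.447% in Cys52Ser. The summed level of the 9 chaperones was 581, 684 and 543 FPKM in WT and 332, 358 and 335 FPKM in Cys52Ser. That of the 4 disulfide isomerases was 891, 993 and 998 against 795, 831 and 869 FPKM. Both FPKM sums were lower in every Cys52Ser library, the first by more. These shares and sums are not TMM-scaled. The median difference in log2(FPKM + 0.5) was itself -0.27 over the genes with a mean of at least 0.5 FPKM, and -0.10 with no filter. On the TMM scale P4hb, the largest part of the isomerase sum, had a positive log2 fold change of 0.31. The other 3 isomerases had negative ones there. In FPKM every Cys52Ser library was below every WT one for 23 of the 33 genes and above them for none. Of the 13938 genes with a mean of at least 0.5 FPKM, 42.8% and 5.48% did so.

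The scale set how many genes were called. With library totals alone 22 of the 33 were called lower and none higher, against 14.6% and 1.57% of all tested genes, and limma on log2(FPKM + 0.5) also called 22 lower and none higher, against 20.7% and 2.58% of its 13938 genes. The distance between the median of the 33 genes and that of all tested genes moved less. It was -0.27 with TMM, -0.26 with library totals alone and -0.33 in limma on log2(FPKM + 0.5), and ran from -0.51 to -0.21 over all alternatives. Of the 7 genes with positive values on the TMM scale, Atf6, Dnajc3, P4hb, Herpud1, Edem1 and Derl3 had negative ones with library totals alone, and Ddit4 stayed positive.

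**Figure D5:**
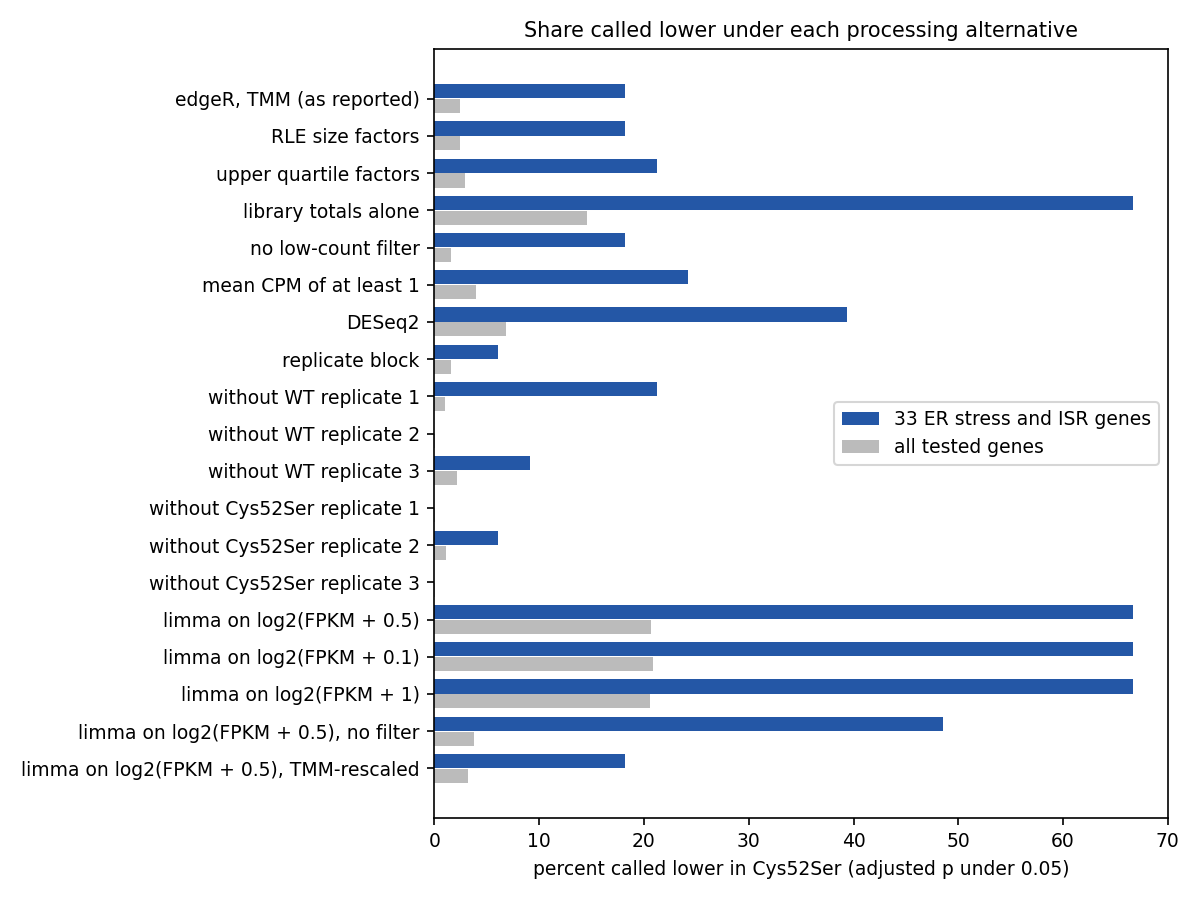
Percent of genes called lower in Cys52Ser (adjusted p under 0.05) under each processing alternative, for the 33 genes (blue) and for all tested genes (grey). The blue bar is the longer one wherever any of the 33 was called, and it is absent where WT replicate 2 or Cys52Ser replicate 1 or 3 was left out.

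Other genes of the same pathways were listed by role. Of 166 listed and tested, 4 rose and 3 fell on the TMM scale in edgeR, near the shares of all tested genes, 2.52% and 2.46%. These counts depended on the scale and the tool. They were 2 higher and 53 lower with library totals alone, 2 higher and 57 lower in limma on log2(FPKM + 0.5), and 19 higher and 14 lower in DESeq2. Over all tested genes, 1.57% were higher and 14.6% lower with library totals alone, and 2.58% and 20.7% in limma. DESeq2 called 1498 of 18648 genes higher and 1268 lower. The calls that follow are those of edgeR on the TMM scale. None of 24 genes of the ER translocon and signal peptidase was called, nor any of 16 oligosaccharyltransferase and glycan trimming genes, 18 oxidative folding genes or 22 further degradation genes. Their median log2 fold changes were -0.09, -0.03, 0.14 and 0.09. None of 20 aminoacyl-tRNA synthetases, many of them ATF4 targets, was called either (median 0.05).

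Among 23 genes of ER-to-Golgi transport and ATF6 processing, 2 rose and 2 fell. Kdelr3, a receptor that returns escaped chaperones to the ER, was measured at 7.17, 9.69 and 6.36 CPM in WT and at 2.04, 2.72 and 1.70 CPM in Cys52Ser, and fell 3.59-fold (adjusted p = 0.0215). Sar1b, the COPII GTPase needed for lipoprotein export, rose 1.89-fold, with WT at 106 ± 15.6 CPM and Cys52Ser at 199.5 ± 21.9 CPM (SD, n = 3 each; adjusted p = 0.0246). Sec24a, a COPII cargo adaptor, rose 1.62-fold (adjusted p = 0.0361). Wfs1, wolframin of the ER membrane, fell 1.61-fold and was the fourth call (adjusted p = 0.0413).

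Of 26 eIF2 kinases and other stress regulators, Atf3 fell and Map3k5 rose. Atf3, a stress-induced transcription factor downstream of ATF4, was measured at 56.4, 73.1 and 64.1 CPM in WT and at 32.4, 22.9 and 25.4 CPM in Cys52Ser. It fell 2.40-fold (adjusted p = 0.0169), with the groups far apart. Map3k5, encoding the kinase ASK1 that IRE1 can recruit, rose 1.62-fold (adjusted p = 0.0470). Of 17 amino acid genes of the ATF4 response, Shmt2, the mitochondrial serine hydroxymethyltransferase, rose 1.66-fold with an adjusted p of 0.05 after rounding, just inside the threshold, and no other gene was called (median -0.01).

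Across all genes with an ERSE match, 28 were not among the 33, and 13 of these were tested. Of the 13, Adcy3 and Spats2l were called lower and Acnat2 higher, and the median on the log2 scale was -0.41 with 10 negative values. The 9 ERSE genes among the 33 had a median of -0.24 and 1 call, Creld2. The 20 genes with a window and no ERSE match had a median of -0.32 and 4 calls. Those 20 include the genes with only ERSE-II or CARE matches, such as Trib3, which was called. Genes with an ERSE match among the 33 thus did not show a lower median than those without, and this is a description of few genes, with no test.

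Markers of other cell types differed between the groups beside these results. In bulk liver, fewer cells of a type and less RNA per cell cannot be told apart. The summed level of 10 macrophage genes was 1411 to 2197 FPKM in WT and 683 to 880 FPKM in Cys52Ser, with Trem2, Gpnmb and Lyz2 lower and the Kupffer cell genes Clec4f and Cd163 higher by the test. That of 10 stellate cell and myofibroblast genes was 234 to 453 FPKM against 109 to 193 FPKM, with Col3a1, Lum, Dcn and Lrat lower. That of 10 cholangiocyte genes was 332 to 818 FPKM against 58.6 to 213 FPKM, with Cldn7 and Pkhd1 lower. In contrast, 4 of 10 sinusoidal endothelial genes were higher (sum 96.9 to 106 and 101 to 107 FPKM), and so were 2 of 12 hepatocyte genes, Hnf4a and Cps1. Every gene of these 5 lists was above 0 counts in every library. The sums are not TMM-scaled, and abundant genes weigh most in them. On the TMM scale the median log2 fold changes were -0.14 for macrophage, -0.91 for stellate cell and -1.79 for cholangiocyte genes. They were 0.51 for sinusoidal endothelial and 0.68 for hepatocyte genes. Of the macrophage genes, 4 had positive and 6 negative values. The part of these cell types in the values of the 33 genes was not tested.

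Some gene models overlap. The library protocol marks strand, but no source used here says if the counting read it, so these values are uncertain. Exons of Manf share 4.14% of their bases with Dcaf1, on the opposite strand, which rose from 17.1 to 27.0 CPM (adjusted p = 0.0434), and 0.397% with Rbm15b on its own strand. Exons of Ddit3 share 3.97% with Mars on the opposite strand (50.2 CPM in WT, 54.5 CPM in Cys52Ser). Exons of Syvn1 share 1.87% with Mrpl49, and those of Hsp90b1 10.3% with 1810014B01Rik, both on the opposite strand. Exons of Eif2ak3 share 8.05% with Gm43292, also on the opposite strand and too low to be tested.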

How the data were processed

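Per the file headers, the authors deposited 1 table with estimated counts and FPKM values per gene for 6 liver libraries. StringTie 1.3.4d, HISAT2 2.0.4, cutadapt 1.9, UMI-tools, edgeR and DESeq2 appear with no stated role in the submitters' processing notes, as does mm9. The coordinates are those of GRCm38 instead: 86.8% of 28524 identifiers found in GENCODE M21 had identical positions, among them 31 of the 33 genes. The deposited estimated counts are whole numbers that follow FPKM times transcript length (99.3% to 99.5% of single-transcript genes with 1000 counts or more lay within 1% of it), and needed no rounding. FPKM in the deposited table is, by its definition, scaled to transcript length and library size.

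Titles gave the groups. Counts were tested with edgeR 4.0.16 in R 4.3.3 (filterByExpr with a minimum count of 10, TMM, robust fits of the quasi-likelihood model with 1 term, genotype), with p-values adjusted over all 18648 tested genes. Levels are TMM-scaled CPM, and intervals are 95%. limma 3.58.1 used log2(FPKM + 0.5) for genes with a mean of at least 0.5 FPKM. DESeq2 1.42.0, other scalings and filters, a replicate block, and leaving out each library were alternatives. The genes, their roles and the other lists were chosen with earlier results of these data known. All 33 genes are accounted for, with library values for called genes, for the smallest p in each role, and for Hspa5, Xbp1, Atf4 and Ddit3. Library values of Chac1, Asns, Ddit4, Herpud1, Edem1 and P4hb were added after seeing them, as were the promoter comparison and the background over genes of at least 10 CPM. Of each pathway list, up to 3 called genes with the smallest p were named by rule; Wfs1 was added. Promoter windows were matched by RefSeq gene. No outlier check applies to groups of 3.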

Additional observations from a re-analysis of the deposited data

How the results depend on the processing

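With RLE or upper quartile factors, with no low-count filter and in limma on TMM-rescaled FPKM, counts over all genes, over the 33 genes and over the pathway lists stayed within 1.5 times those reported. With library totals alone, 293 genes were higher and 2724 lower, 22 of the 33 genes were lower with a median of -0.61, and 2 pathway genes were higher and 53 lower. With a mean CPM of at least 1, 5 pathway genes were lower. DESeq2 gave 1498 higher and 1268 lower genes, 13 of the 33 lower, and 19 higher and 14 lower pathway genes. limma with pseudocounts of 0.5, 0.1 and 1 gave 2890, 2912 and 2874 lower genes and 22 of the 33 lower in each, with medians of -0.61, -0.63 and -0.61, and pathway genes 2 higher in each and 57, 57 and 56 lower. Without a filter it gave 174 higher and 1091 lower genes, 16 of the 33 lower (median -0.61), and 1 higher and 26 lower pathway genes. Apart from the shift that library totals and unscaled FPKM put on all genes, the cause of these differences was not tested.

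The replicate block gave 303 lower genes and 2 of the 33, Manf and Eif2ak3. The numbers in the titles are not stated to pair mice, and same-numbered libraries deviated together with correlations of 0.01, 0.17 and 0.06, not all best with their own number.

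Leaving out 1 library at a time gave 21 to 378 higher and 7 to 412 lower genes, 0 to 7 of the 33 lower with medians from -0.40 to -0.25, and 0 to 3 higher and 0 to 4 lower pathway genes. Manf lost its call in 3 of these 6 edgeR fits (adjusted p up to 0.0766). Eif2ak3, Dnajb9, Sdf2l1, Creld2 and Trib3 each lost theirs in 5, with adjusted p up to 0.118, 0.133, 0.12, 0.141 and 0.141. Fewer mice and single libraries cannot be told apart there.

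Uncalled genes that changed sign were Atf6 (main 0.04), at 0.00 with upper quartile factors, -0.32 with library totals, -0.02, -0.01 and -0.02 without WT replicates 1, 2 and 3, -0.01 without Cys52Ser replicate 1 (highest without a library, 0.08), and -0.29, -0.31, -0.28 and -0.29 in limma with pseudocounts 0.5, 0.1 and 1 and unfiltered. In the same order, Derl3 was -0.14 with library totals, -0.09 to 0.52 without 1 library and -0.12, -0.17, -0.09 and -0.12 in limma. Herpud1 was -0.17 with library totals, -0.25 to 0.44 without 1 library and -0.03, -0.03, -0.04 and -0.03 in limma. Dnajc3, Edem1 and P4hb were -0.07, -0.07 and -0.04 with library totals and in these limma fits. Without 1 library, Ddit4 ranged from -0.10 to 0.79 (-0.02 without Cys52Ser replicate 3), Asns from -1.12 to 0.04 and Ppp1r15a from -0.30 to 0.07 (both highest without Cys52Ser replicate 1), and Derl1 reached 0.01 without Cys52Ser replicate 2. The lowest counts of any of the 33 genes in a library were 98 for Chac1 and 103 for Derl3, and the part of depth in their spread was not tested.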
